A study of Mus musculus with 12 samples.

Results

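The DEAD and DEAH RNA helicase genes were taken as all mouse genes whose symbol is Ddx or Dhx followed by a number, with 1 gene of this name pattern not analysed here. This gave 53 of the 20981 genes in the deposited gene tables, 37 with a Ddx symbol and 16 with a Dhx symbol, and all 53 were matched to the GENCODE M21 annotation of mm10. Their mRNAs were followed through 4 RNA pools from testes of Mael-/- C57BL/6 mice of about 3 months of age, and no pool came from control animals, so every group carries the Mael mutation. Maelstrom is a factor of the piRNA pathway, and its loss derepresses the retrotransposon LINE-1 (L1) in spermatocytes. TOTAL was RNA of the unfractionated testis extract. INPUT was RNA of pooled fractions 5 to 8 of a 10 to 50% sucrose gradient run with 10 mM EDTA, which takes ribosomes apart. IP was RNA recovered from INPUT with an antibody to ORF1p, the RNA-binding protein encoded by L1, and BO was RNA that stayed on the carrier beads without antibody. Each pool had 3 libraries, 12 in all. The Mael-/- testis is a mixture of germ and somatic cells, and the precipitate can hold RNA of any cell with ORF1p, or RNA that met ORF1p in the extract. The comparisons ask which helicase mRNAs were more abundant in ORF1p complexes, relative to the other RNA of the same pool. The other side was the beads (IP vs. BO), the gradient fractions the complexes came from (IP vs. INPUT) or the whole extract (IP vs. TOTAL).

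DEAD-box and DEAH-box proteins use ATP to open RNA duplexes or to move proteins off RNA, and each step of an mRNA's life has members of its own. DEAD-box members bind and release short duplexes, while DEAH-box members move along 1 strand from its 3′ end. They work in splicing, in ribosome assembly, in mRNA export, and in the storage or decay of mRNA in cytoplasmic granules. Some act in the sensing of viral RNA in the cytoplasm, and 3 members are listed here under that role. In the testis, several are made mainly in germ cells, where mRNAs are stored in RNA granules long before their translation. What was measured here is the mRNA of each helicase, not the protein.

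The family takes its name from motif II of the helicase core, which binds the magnesium ion and ATP. A search of the longest coding sequence of each gene found its codons in 51 of 53 members, and no match was found in Ddx26b and Dhx32, which says only that the pattern searched is not in those sequences. Named by the residues the codons encode, the motif was DEAD in 27 members, DEAH in 9, DEVH in 5, DEVD in 3, DECD in 2, DECH in 2, DEIH in 2 and DESD in 1. The stretches shown are those of the members on which the results turn, from GENCODE M21 transcripts. Capitals mark the 4 motif codons with 9 coding bases on each side, the span given is that of the gene in mm10, and positions count from the first base of the start codon. All lie in coding exons. The first set has the 2 highest members of each comparison with IP, which are Ddx1 and Ddx25 against BO, Ddx10 and Ddx1 against INPUT, and Ddx10 and Dhx40 against TOTAL, followed by Dhx37, the next highest against TOTAL.
Ddx1, chr12:13216973-13249213, minus strand, coding bases 1099 to 1128: ctggtcctgGATGAAGCAGATgggcttctc
Ddx10, chr9:53098635-53248053, minus strand, coding bases 655 to 684: ttagttcttGATGAGGCAGATagaatcttg
Ddx25, chr9:35536647-35558528, minus strand, coding bases 733 to 762: tttgtcctgGATGAAGCAGATgtgatgatt
Dhx40, chr11:86768846-86807746, minus strand, coding bases 508 to 537: attattttgGATGAAGCCCATgaaagaact
Dhx37, chr5:125413858-125434121, minus strand, coding bases 1093 to 1122: gtgatcattGACGAAGCCCATgagcggagc
The next set has members that, relative to the median gene, were about as high on beads without antibody as in IP, or higher.
Ddx6, chr9:44604892-44640731, plus strand, coding bases 727 to 756: atagtgctaGATGAGGCAGATaaattgttg
Ddx3y, chrY:1260771-1286629, minus strand, coding bases 1027 to 1056: ttagtattgGATGAAGCTGATaggatgctg
Dhx36, chr3:62468013-62507004, minus strand, coding bases 970 to 999: attgtacttGATGAAATTCATgaaaggaat
Ddx60, chr8:61928087-62038244, plus strand, coding bases 2653 to 2682: gttatatttGATGAGGTCCATtgccttggt
The last set has a pair of neighbouring export genes that differed in IP although their motif stretches are identical letter for letter, and an RNA sensor.
Ddx19a, chr8:110974996-110997800, minus strand, coding bases 712 to 741: tttgttctgGACGAGGCTGATgtgatgata
Ddx19b, chr8:111003188-111031751, minus strand, coding bases 760 to 789: tttgttctgGACGAGGCTGATgtgatgata
Dhx58, chr11:100694884-100704271, minus strand, coding bases 382 to 411: attgtggtgGACGAGTGTCACcacacccac

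The gene tables hold 1 mean of normalized counts per group and no value per library. Their standard errors and p-values belong to the authors' own comparisons and were not used, so no spread between replicates is given and no difference below was tested. All values are the authors' means. Being normalized, they set a gene against the other RNA of its pool and do not measure how much RNA a pool held. For BO the authors took the RNA found in the volume used for the matching IP sample. A higher value in BO than in IP therefore does not mean that bare beads held more of that mRNA. For each gene the log2 ratio of 2 means, each plus 1, was taken relative to the ratio of the median gene (genes with a mean of at least 10 over both groups), and a member is called past the fold when this relative log2 ratio is above 1 or below -1, a 2-fold difference. The number after ± is the widest half-width of a 95% counting interval, from the fewest reads that the mean allows. It covers counting error only and says nothing of how libraries differ. Reads behind a member's mean ranged from at least 26 for Dhx58 in BO to at least 79580 for Ddx5 in IP. Gene reads per group came to between 29300000 and 61500000 in BO and between 49400000 and 78400000 in the other groups. All 53 members had a mean of at least 10 in every comparison. The 3 IP libraries enter each comparison, and each table was normalized on its own, so the IP mean of 1 gene differs between tables. In the repeat table, large-subunit rRNA made up 52.1% of the signal in BO replicate 3, against 3.18% and 3.25% in the other BO libraries and 1.93 to 15.9% in the remaining 9, and its weight in the BO means cannot be removed.

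The cell type markers moved with the pools. All 5 spermatocyte markers (Sycp1, Sycp3, Spo11, Hormad1 and Piwil1) lay 2.28 to 3.00 above the median gene in IP vs. TOTAL on the log2 scale, and their summed mean was 18543 in TOTAL and 120260.1 in IP. All 4 Leydig cell markers were past the fold on the low side, with a summed mean of 47679 in TOTAL and 10228 in IP, as were 3 of 4 Sertoli cell markers (69352 and 21914). The 2 macrophage markers in the table summed to 1844 and 880.5, and the peritubular markers went apart, with Acta2 at 4013 in TOTAL and 666 in IP (-2.56) and Myh11 at 2645 in TOTAL and 3069 in IP (0.24). The 4 spermatogonial markers summed to 5949 in TOTAL and 3399 in IP. The spermatid markers Acrv1, Prm1, Tnp1 and Tnp2 had TOTAL means of only 11.7 to 39.3 and IP means below 1, the low end of the measured genes. Against BO, all 5 spermatocyte markers were again past the fold on the high side. On the low side were 0 of 4 Leydig, 1 of 4 Sertoli and 2 of 4 spermatogonial markers. The low somatic values were thus not particular to IP. In BO relative to INPUT the median was -1.47 for Leydig, -1.30 for Sertoli and -1.97 for macrophage markers, although Sox9 stood at 1.66. INPUT, IP and BO were taken from the extract that gave TOTAL, so the markers describe RNA recovered in each pool, not numbers of cells. The part of cell type in the helicase results was not tested.

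Levels differed widely between members. Per kb of transcript, the mean in TOTAL was highest for Ddx5 (4084), a splicing and transcription cofactor, followed by its relative Ddx17 (1504), the spliceosome recycling helicase Dhx15 (1472), Dhx32 (1367) and Dhx40 (1366). The storage and decay factor Ddx6 was at 1283 and Ddx3x at 1166. The lowest were the sensor Dhx58 (44.3), the germ cell helicase Ddx25 (61.6) and Ddx60 (64.1). Neighbours in this order often differed by a few percent, as Dhx32 and Dhx40 did, and with no spread between libraries given here these are not ordered. The length used is that of 1 transcript per gene, so the order per kb depends on that choice.

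Most helicase mRNAs lay above the median gene in the comparisons with IP, 45 of 53 against TOTAL, 42 against INPUT and 41 against BO. The median member stood at 0.94 against TOTAL, 0.78 against INPUT and 0.70 against BO, and it stayed above 0 under each of the 4 scalings tried. In IP vs. TOTAL, 25 of 53 members (47.2%) were past the fold on the high side, beside 21.1% of all 14666 genes, and 1 (1.89%) on the low side, beside 25.7% of all genes. In IP vs. INPUT, 15 members (28.3%) were higher and 1 lower, beside 16.5% and 17.9% of 14400 genes. In IP vs. BO, 19 members (35.8%) were higher and 3 (5.66%) lower, beside 18.3% and 24.1% of 13634 genes. A mean of at least 100 was reached by 52 of 53 members and by 10968 of 20981 genes in IP vs. TOTAL. Among genes with a mean of at least 100, relative to their own median, the high share was 22 of 52 members against 19.4% in IP vs. TOTAL, 13 of 52 against 14.0% in IP vs. INPUT and 17 of 51 against 18.5% in IP vs. BO.

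The scale of the BO comparison is the least certain. On the deposited scale the median gene itself stood 0.81 higher in IP than in BO, 0.15 higher in IP than in INPUT and 0.03 lower in IP than in TOTAL (log2). Taken on that scale, 40 members were past the fold on the high side and 2 on the low side in IP vs. BO, beside 43.9% and 11.2% of all genes. With groups scaled to equal sums of gene means, 34 members were higher and 2 lower in IP vs. BO (34.1% and 15.0% of all genes), 10 higher and 3 lower in IP vs. INPUT (9.05% and 28.3%), and 11 higher and 3 lower in IP vs. TOTAL (9.73% and 38.1%). Ddx26b, Ddx58, Dhx9, Dhx32, Dhx33, Dhx35, Dhx36 and Dhx57 lay below the median gene against BO but above 0 on the deposited scale. A member's rank among all genes does not move with the scale, and is given below as a percentile where it helps.

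**Figure D1:**
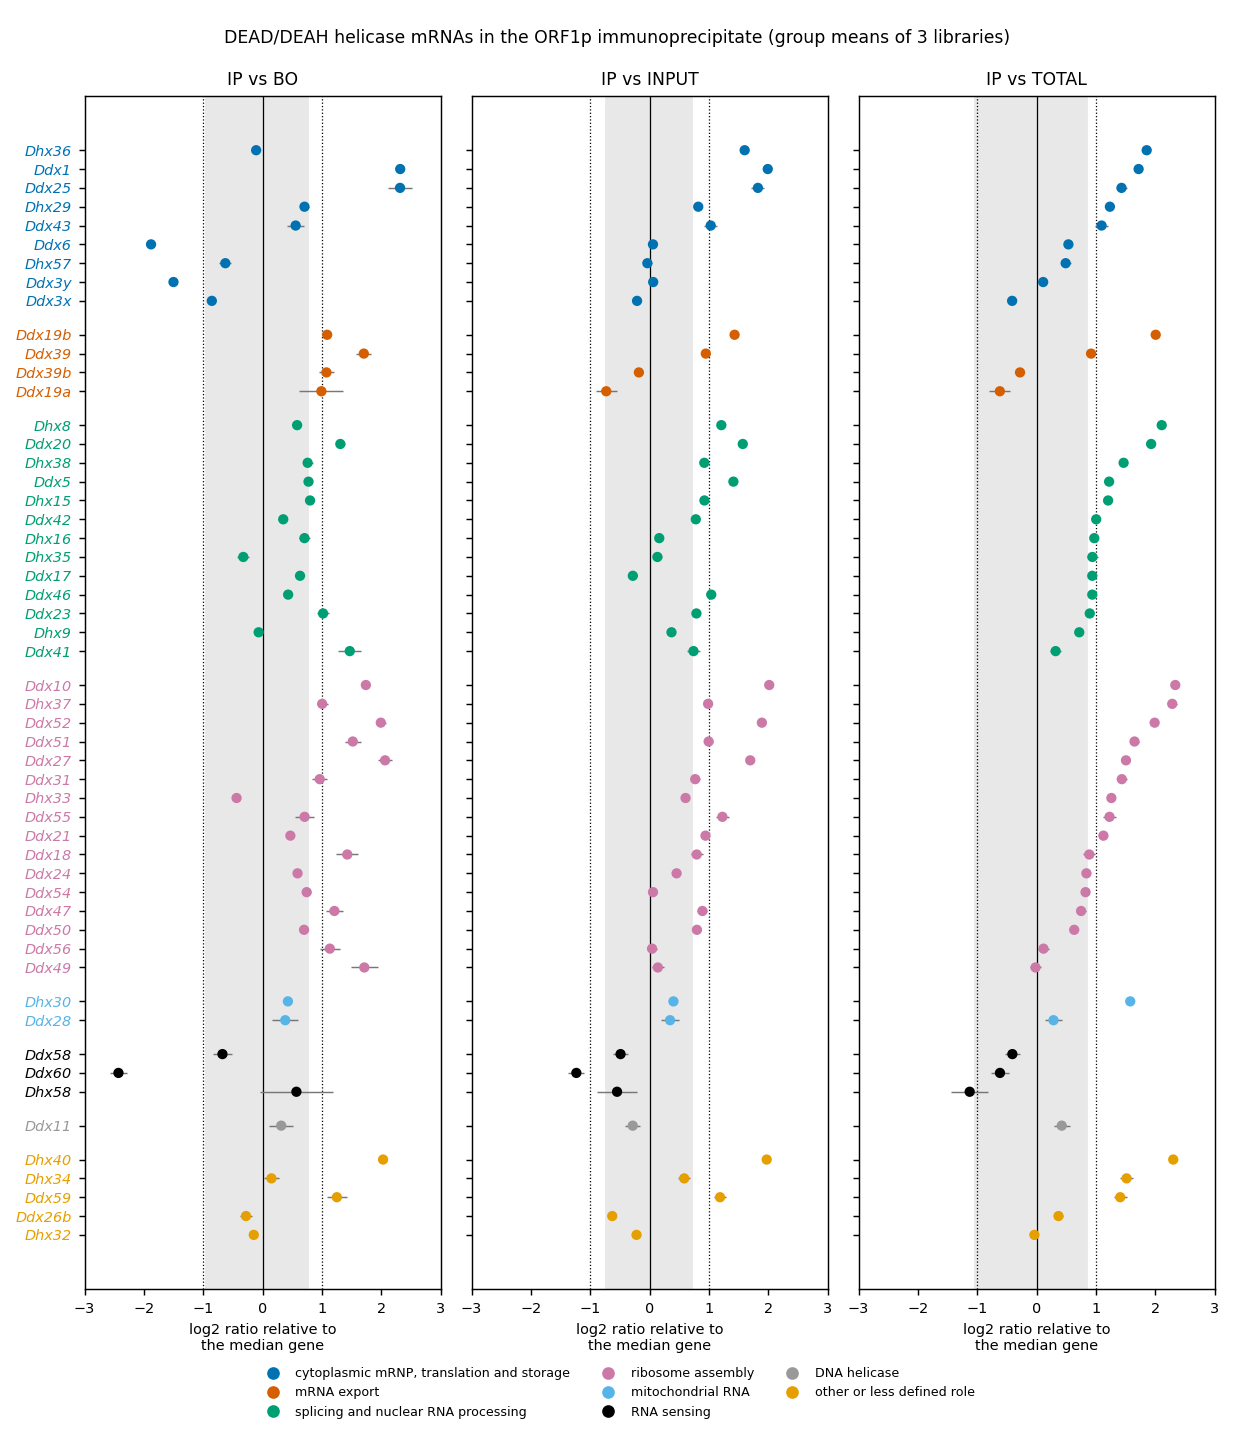
Relative log2 ratio of IP against BO, INPUT and TOTAL (panels from left to right) for each of the 53 members (rows, grouped and coloured by role). Points are ratios of group means, bars the counting interval, the grey band the middle 50% of all genes and dotted lines the 2-fold threshold. Most points in the right panel lie right of 0, and the 3 RNA sensing genes lie left of 0 in the middle and right panels.

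**Figure D2:**
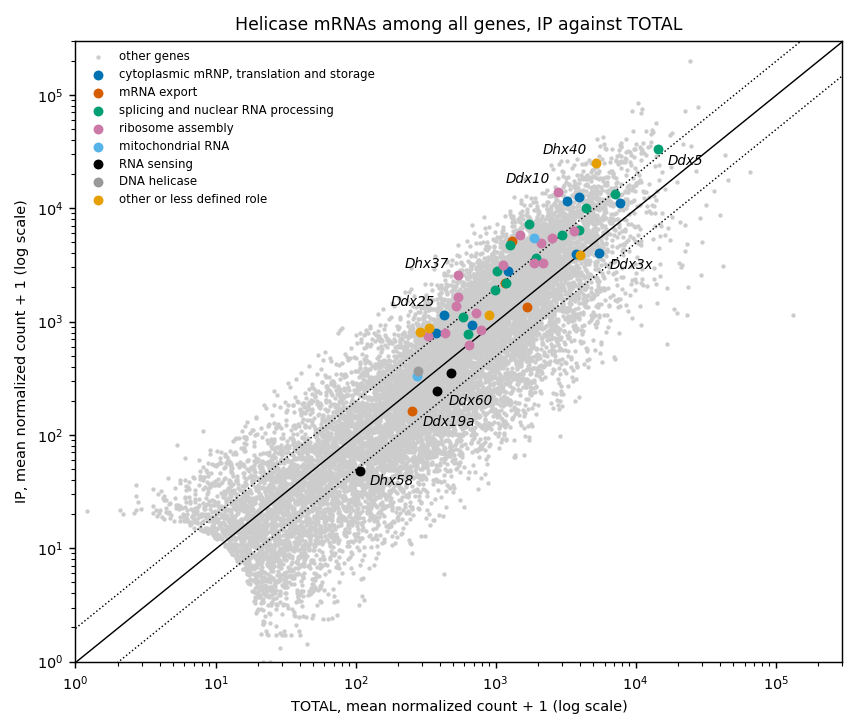
Mean normalized count plus 1 in TOTAL (x axis, log scale) and IP (y axis, log scale) for genes with a mean of at least 10, with the 53 members coloured by role. The solid line is the ratio of the median gene and dotted lines a 2-fold difference from it. Members fill the upper part of the expression range, and 25 lie above the upper dotted line.

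Of the helicases listed as acting on mRNA in the cytoplasm, 9 were measured. In IP vs. TOTAL, 5 were past the fold on the high side and none of 9 on the low side (all genes 21.1% and 25.7%), and in IP vs. INPUT these numbers were 4 and 0 (16.5% and 17.9%). Against BO, 2 were higher and 2 lower (22.2% each), near the 18.3% and 24.1% of all genes. With groups scaled to equal sums, 2 of 9 were past the fold in IP vs. TOTAL (9.73% of all genes) and 4 lay below 0, and 4 were higher and 1 lower in IP vs. BO (34.1% and 15.0%). Ddx1, part of cytoplasmic RNA transport granules and of the tRNA ligase complex, had a mean of 1106 in BO and 9673 in IP, a relative log2 ratio of 2.32 ± 0.062. It was the highest of the 53 in that comparison, at percentile 98.6 of all genes, but Ddx25 (2.31 ± 0.21) differed from it by less than the counting interval. Against INPUT (2875, with IP at 12681) Ddx1 stood at 1.99 ± 0.034, and against TOTAL (3912, with IP at 12619.5) at 1.72 ± 0.031.

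Ddx25, a helicase of germ cells and Leydig cells needed for spermatid development, had the same order at a far lower level. Its mean was 98.5 in BO and 867 in IP (2.31 ± 0.21), 288 in INPUT and 1136 in IP (1.82 ± 0.11), and 427 in TOTAL and 1130.4 in IP (1.43 ± 0.096). Ddx1 and Ddx25 were both lowest in BO relative to IP and closest to IP in TOTAL. Ddx43, a germ line helicase with a KH domain, stood at 1.09 ± 0.11 in IP vs. TOTAL and 1.03 ± 0.11 in IP vs. INPUT, and at 0.56 ± 0.15 in IP vs. BO, where it did not pass the fold. In its case 13.03% of the 75-base windows of the transcript also occur, in either orientation, in another annotated gene, 4930542C12Rik. Dhx29, which helps ribosomes scan structured leaders, stood at 1.23 ± 0.058 against TOTAL, 0.82 ± 0.055 against INPUT and 0.70 ± 0.081 against BO.

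Dhx36, which unwinds G-quadruplexes, had means of 3259.7 in TOTAL and 11550.3 in IP (1.85 ± 0.033), and of 3445 in INPUT and 11602 in IP (1.60 ± 0.032). Its mean in BO was 5446 with IP at 8849.6, which is -0.11 ± 0.032 relative to the median gene. It was past the fold against both TOTAL and INPUT and close to the median gene against beads, although on the deposited scale it was 0.70 (log2) higher in IP than in BO.

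Ddx6, the helicase of P-bodies and of translational repression, was higher on beads than in IP relative to the other RNA of each pool. Its mean was 17782 in BO, the highest mean of any member in that pool, and 8468 in IP, a relative log2 ratio of -1.88 ± 0.023 at percentile 10.4 of all genes. Against INPUT (9621, with IP at 11105) it stood at 0.06 ± 0.024, and against TOTAL (7779, with IP at 11049) at 0.53 ± 0.025. Ddx3y, the Y-linked copy of the translation helicase Ddx3x, shared this order, with 4906 in BO and 3035 in IP (-1.503 ± 0.041), 0.06 against INPUT and 0.11 against TOTAL. Against BO on the deposited scale, Ddx3y was at -0.69 (log2), not past the fold, and Ddx6 at -1.07. Ddx3x stood at -0.86 ± 0.046 against BO (-0.05 on the deposited scale), -0.21 ± 0.038 against INPUT and -0.41 ± 0.036 against TOTAL. Dhx57, listed with this group although its function is less defined, passed the fold in none of the 3 comparisons and stood at -0.63 ± 0.10 against BO, where it was above 0 on the deposited scale (0.18), -0.04 ± 0.082 against INPUT and 0.49 ± 0.087 against TOTAL.

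The 4 mRNA export helicases did not share an order of pools. Ddx19b, which releases mRNA on the outer face of the nuclear pore, had a mean of 1300.5 in TOTAL and 5125 in IP (2.00 ± 0.052), 1717 in INPUT with IP at 5140.4 (1.43 ± 0.047), and 1053 in BO with IP at 3922 (1.09 ± 0.067). It was past the fold on the high side in all 3. Ddx19a, its neighbour on chromosome 8, had a mean of 253 in TOTAL and 161 in IP (-0.62 ± 0.18), -0.73 ± 0.18 against INPUT and 0.99 ± 0.37 against BO. The exon-joining and export helicases Ddx39 and Ddx39b were past the fold in IP vs. BO, at 1.70 ± 0.12 and 1.07 ± 0.13. Against TOTAL Ddx39 stood at 0.92 ± 0.062 and Ddx39b at -0.28 ± 0.064, and against INPUT they stood at 0.94 ± 0.064 and -0.18 ± 0.066. Of the 75-base windows of Ddx39, 13.56% also occur in Adgre5.

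All 13 members that act in splicing or other nuclear RNA processing lay above the median gene in IP vs. TOTAL on this scale, and 6 of 13 were past the fold, beside 21.1% of all genes. The lowest of the 13, Ddx41, stood at 0.32 ± 0.092, and it was below 0 when groups were scaled to equal sums, where 2 of 13 were past the fold, beside 9.73% of all genes. Against INPUT 4 of 13 were past the fold on the high side (16.5% of all genes). Against BO there were 3 of 13 (23.1%), near the 18.3% of all genes. With groups scaled to equal sums these 2 numbers became 2 and 9 (9.05% and 34.1% of all genes). Dhx8, which releases spliced mRNA from the spliceosome, was the highest of the 13 in IP vs. TOTAL, with 1722 in TOTAL and 7272 in IP (2.11 ± 0.045). It stood at 1.21 ± 0.037 against INPUT and 0.58 ± 0.049 against BO. Ddx20, the SMN complex helicase gemin 3, was past the fold in each comparison, at 1.93 ± 0.053, 1.57 ± 0.050 and 1.31 ± 0.074 against TOTAL, INPUT and BO. Dhx38, which acts at the catalytic step of splicing, was at 1.46 ± 0.062 against TOTAL, 0.92 against INPUT and 0.76 against BO.

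Ddx5, with the highest mean of any member in TOTAL and in IP but not in INPUT or BO, had means of 14537 in TOTAL and 33209 in IP (1.22 ± 0.017) and of 11295 in INPUT with IP at 33344 (1.41 ± 0.018). In BO it was at 8492 with IP at 25442 (0.77 ± 0.024). Of its 75-base windows, 14.4% also occur in Gm12183. Dhx15 stood at 1.203 ± 0.031 in IP vs. TOTAL, 0.92 against INPUT and 0.80 against BO. Ddx42, a relative of the branch-site helicases, was barely past the fold in IP vs. TOTAL at 1.002 ± 0.038, an interval that spans the threshold. Ddx46, which acts at the branch site, stood at 1.04 ± 0.051 in IP vs. INPUT, 0.94 ± 0.048 in IP vs. TOTAL and 0.43 ± 0.066 in IP vs. BO. Ddx23, of the U5 particle, was past the fold only against BO (1.02 ± 0.10), with 0.79 against INPUT and 0.89 against TOTAL. Ddx41 stood at 1.47 ± 0.19 against BO and 0.74 against INPUT. Dhx16 and Dhx35 stood at 0.97 and 0.94 against TOTAL, 0.16 and 0.13 against INPUT, and 0.70 and -0.33 against BO, where Dhx35 was at 0.48 on the deposited scale. Dhx9, which resolves duplexes formed by inverted repeats, was near the median gene against BO (-0.07 ± 0.044, and 0.74 on the deposited scale) and stood at 0.37 ± 0.033 against INPUT and 0.72 ± 0.035 against TOTAL.

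Ribosome assembly has the most members, 16, and 9 of them were past the fold on the high side in IP vs. TOTAL, 4 against INPUT and 9 against BO, with none on the low side in any. The shares of all genes on the high side were 21.1%, 16.5% and 18.3%, and on the low side 25.7%, 17.9% and 24.1%. With groups scaled to equal sums the numbers on the high side became 4, 3 and 14 (all genes 9.73%, 9.05% and 34.1%). On the deposited scale they were 9, 8 and 15 (all genes 20.4%, 20.5% and 43.9%). Ddx10, needed for the small subunit, was the highest of all 53 in IP vs. TOTAL, with 2812 in TOTAL and 13922 in IP (2.33 ± 0.034, percentile 97.7), and in IP vs. INPUT, with 3118 in INPUT and 13989 in IP (2.01 ± 0.033). Against BO (1823, with IP at 10672) it stood at 1.74 ± 0.049. Its counting interval overlapped those of Dhx40 and Dhx37 against TOTAL (2.30 ± 0.025 and 2.28 ± 0.079). Against INPUT it overlapped those of Ddx1 and Dhx40 (1.99 ± 0.034 and 1.97 ± 0.024), so Ddx10 is not set apart from them. Ddx52 was at 1.99 ± 0.048, 1.89 ± 0.049 and 1.99 ± 0.083 against TOTAL, INPUT and BO, and Ddx27, a large-subunit factor, at 1.504 ± 0.058, 1.69 ± 0.064 and 2.06 ± 0.12. Ddx10, Ddx52 and Ddx27 were past the fold in each comparison.

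Dhx37, which frees U3 snoRNA from the small subunit precursor, had 536 in TOTAL and 2561 in IP (2.28 ± 0.079). It stood near the threshold against INPUT (0.98 ± 0.060) and BO (1.002 ± 0.092), and both intervals span 1. Ddx51 was at 1.65 ± 0.083 against TOTAL and 1.52 ± 0.13 against BO, with 0.99 ± 0.074 against INPUT. Ddx31 (1.43 ± 0.087), Dhx33 (1.258 ± 0.044), Ddx55 (1.23 ± 0.11) and Ddx21 (1.12 ± 0.041) were past the fold in IP vs. TOTAL, and Ddx55 was also past it in IP vs. INPUT (1.23 ± 0.12). In IP vs. BO the same 4 stood at 0.96, -0.44, 0.71 and 0.47, with Dhx33 above 0 on the deposited scale (0.37).

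A further 4 ribosome assembly members were past the fold against BO and not against INPUT or TOTAL. Ddx49 stood at 1.71 ± 0.23 against BO and at 0.14 and -0.02 against INPUT and TOTAL, with 31.9% of its 75-base windows also in Homer3. Ddx56 stood at 1.13 ± 0.17, 0.04 and 0.11 in the same order. Ddx18 stood at 1.43 ± 0.19, 0.79 and 0.89. Its values are uncertain since 50.18% of its windows also occur in other annotated genes, mostly Gm16433. Ddx47 stood at 1.21 ± 0.14, 0.89 and 0.75. The remaining members of the group, Ddx24, Ddx50 and Ddx54, passed the fold in none of the 3 comparisons. They stood at 0.84, 0.63 and 0.82 against TOTAL and at 0.59, 0.70 and 0.74 against BO. Of the Ddx54 windows, 13.44% also occur in other annotated genes, mostly Gm43579.

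The mitochondrial helicase Dhx30 had 1868 in TOTAL and 5466 in IP (1.58 ± 0.045) and stood at 0.40 ± 0.036 against INPUT and 0.42 ± 0.054 against BO. Ddx28, which helps build the mitochondrial ribosome, stood at 0.28 ± 0.14, 0.34 ± 0.15 and 0.38 ± 0.22. Of the 5 members with another or less defined role, Dhx40 was past the fold in each comparison. Its mean was 5210.0 in TOTAL and 25169 in IP (2.30 ± 0.025), 5811 in INPUT and 25315 in IP (1.97 ± 0.024), and 2697 in BO and 19302 in IP (2.03 ± 0.040). Ddx59 also was, at 1.41 ± 0.11, 1.19 ± 0.11 and 1.25 ± 0.17. Dhx34, a factor of nonsense-mediated decay, was past it in IP vs. TOTAL (1.51 ± 0.12) and stood at 0.58 and 0.15 against INPUT and BO. Ddx26b, an Integrator-related gene now called Ints6l, stood at 0.37 ± 0.077, -0.63 ± 0.068 and -0.28 ± 0.098, and Dhx32 at -0.04, -0.22 and -0.15, and on the deposited scale they were at 0.53 and 0.66 against BO. The DNA helicase Ddx11 stood at 0.42 ± 0.14, -0.29 ± 0.12 and 0.31 ± 0.20.

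The 3 genes listed here under RNA sensing had the lowest median of the 8 role groups in each comparison with IP, -0.68, -0.55 and -0.62 against BO, INPUT and TOTAL. Each member was placed in 1 role group only. A member with a further role in sensing is counted elsewhere, so the result holds for these 3 genes and not for RNA sensing as such. All 3 were below the median gene in IP vs. TOTAL and IP vs. INPUT, under each of the 4 scalings. Against BO the direction turned with the scaling, since on the deposited scale the median was 0.13, 2 of 3 lay above 0 and 1 was past the fold on the high side, as were 43.9% of all genes. Dhx58, which encodes LGP2, had a mean of 107 in TOTAL and 47.4 in IP (-1.13 ± 0.31), the lowest of the 53, and an interval that spans the threshold. Against INPUT it stood at -0.55 ± 0.34 and against BO, on at least 26 reads, at 0.57 ± 0.61. Ddx60, which aids RIG-I signalling, had 579 in BO and 188 in IP (-2.43 ± 0.14), the lowest of the 53 in that comparison, 523 in INPUT with IP at 246 (-1.24 ± 0.14), and 384 in TOTAL with IP at 245 (-0.62 ± 0.14). Ddx58, which encodes RIG-I, stood at -0.68 ± 0.16, -0.49 ± 0.12 and -0.41 ± 0.12 against BO, INPUT and TOTAL, and at 0.13 against BO on the deposited scale.

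The 11 listed partners of RNA sensing mostly lay below the median gene against TOTAL and INPUT too. Of the 10 with a mean of at least 10 in IP vs. TOTAL, 5 were past the fold on the low side (25.7% of all genes) and none on the high side, with a median of -0.80, and all 10 were below 0 against both TOTAL and INPUT. Against INPUT 2 of 10 were past the fold on the low side, near the 17.9% of all genes. These counts hold Ifit1 among the 10, which passed the filter only through TOTAL and INPUT, since its IP means were 8.91 and 9.04. Against BO, 3 of 9 measured lay above the median gene and 3 were past the fold on the low side (24.1% of all genes), while on the deposited scale 5 of 9 lay above 0, 2 of them past the fold (43.9% of all genes). In IP vs. TOTAL the lowest with an IP mean of at least 10 was Tlr3, a receptor for duplex RNA picked after its value was seen (-2.18 ± 0.31). Ifit1, an interferon-induced gene, stood at -2.19 ± 0.67 and is not ranked, since its IP mean was 8.91. The highest was the ubiquitin ligase Trim25 (-0.08 ± 0.068), and Ifih1 (-0.09 ± 0.099) differed from it by less than the counting interval. Isg15 was below the filter, at 14.8 in TOTAL. In that comparison all 4 Leydig, all 4 Sertoli, all 4 spermatogonial and both macrophage markers (Cd68 at -2.84 and Csf1r at -0.93) also lay below the median gene, as did the peritubular Acta2 but not Myh11.

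Before the antibody step, 3 members (5.66%) were past the fold on the high side in INPUT relative to TOTAL, near the 5.56% of 14280 genes. None was past it on the low side, beside 13.0% of those genes. This comparison and that of BO with INPUT were set across tables through the shared IP libraries. Dhx37 stood at 1.298 ± 0.084, Ddx17 at 1.22 ± 0.023 and Dhx30 at 1.18 ± 0.046, followed by Ddx26b at 0.997 ± 0.068, which did not pass. For Ddx17 the mean was 7119 in TOTAL against IP at 13361 (0.94 ± 0.025) and 14700.0 in INPUT against IP at 13408 (-0.28 ± 0.021). Ddx17 was above the median gene in IP vs. TOTAL and slightly below it in IP vs. INPUT. The lowest of the 53 were Dhx58 (-0.58 ± 0.26), Ddx41 (-0.42 ± 0.10) and Ddx25 (-0.39 ± 0.12). The median member stood at 0.23, beside 0.04 for all genes.

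In BO relative to INPUT, 5 members were past the fold on the high side and 5 on the low side (9.43% each), beside 22.5% and 15.2% of 13578 genes. The difference between these shares was not tested. The high ones were Ddx6 (1.94 ± 0.022), Dhx36 (1.71 ± 0.039), Ddx3y (1.56 ± 0.040), Ddx60 (1.195 ± 0.11) and the ribosome assembly factor Dhx33 (1.04 ± 0.048). The low ones were Ddx19a (-1.72 ± 0.36), Ddx49 (-1.58 ± 0.23), Ddx39b (-1.257 ± 0.13), Dhx58 (-1.12 ± 0.59) and Ddx56 (-1.09 ± 0.17). With groups scaled to equal sums these numbers became 1 (1.89%) and 22 (41.5%), beside 6.17% and 42.2% of all genes, and Ddx6 was then the only high one. All values that use BO hold the library with 52.1% rRNA signal.

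**Figure D3:**
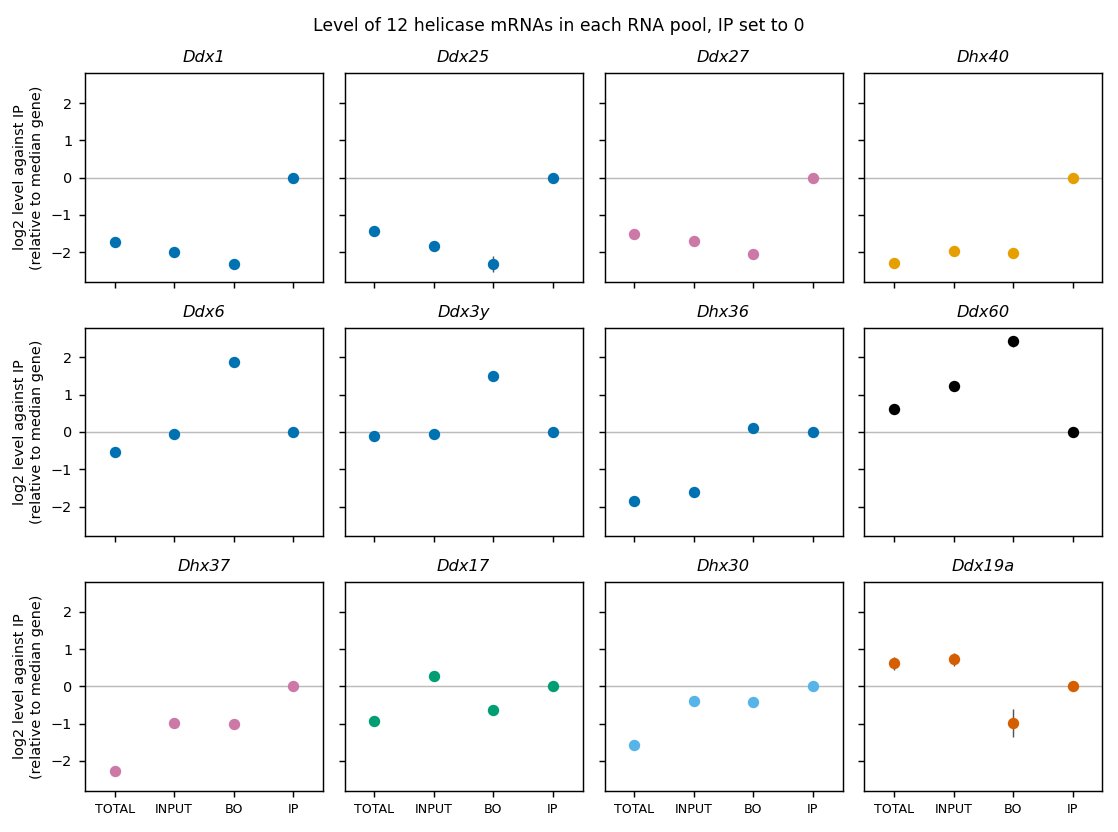
Level of 12 members in TOTAL, INPUT and BO as the log2 ratio to IP, relative to the median gene, with IP set to 0. Points come from group means and bars are counting intervals. The top row is below IP in all 3 pools, Ddx6, Ddx3y and Ddx60 are highest in BO, and Dhx36 is at the IP level in BO alone.

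Related genes did not always sort together. Ddx19a and Ddx19b share 93.24% of aligned coding bases, and 27.54% of the 75-base windows of Ddx19a occur in Ddx19b, so reads can be lost or shared between them, yet in IP vs. TOTAL they stood at -0.62 and 2.00. Ddx3x and Ddx3y share 84.63% and no 75-base window, and stood at -0.41 and 0.11. The third copy, the autosomal D1Pas1, shares 87.41% with Ddx3x. It is made in male germ cells, its mean was 178 in TOTAL and 1092 in IP, and it stood at 2.64 ± 0.13 against TOTAL, 1.92 ± 0.12 against INPUT and 0.96 ± 0.14 against BO. Ddx5 and Ddx17 share 72.23%, and stood at 1.41 and -0.28 in IP vs. INPUT. Ddx39 and Ddx39b (81.68%) stood at 0.92 and -0.28 in IP vs. TOTAL, and Ddx21 and Ddx50 (73.32%) at 1.12 and 0.63.

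**Figure D4:**
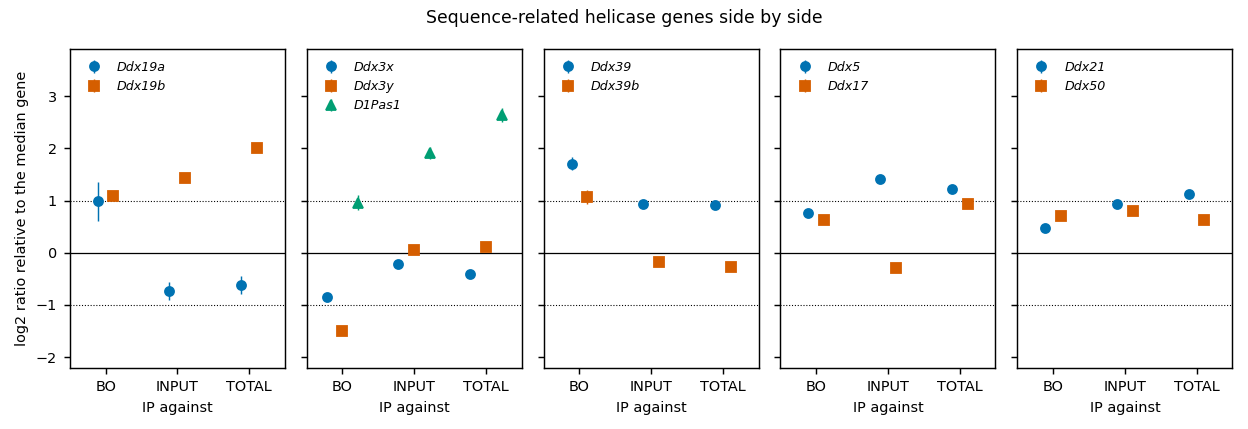
Relative log2 ratio of IP against BO, INPUT and TOTAL for 5 sets of sequence-related helicase genes, with counting intervals and dotted lines at the 2-fold threshold. Ddx19a and Ddx19b meet against BO and part by over 2 units against INPUT and TOTAL, and D1Pas1 lies above Ddx3x and Ddx3y in each panel position.

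By name, 10 of 16 Dhx genes were past the fold on the high side in IP vs. TOTAL and 15 of 37 Ddx genes, beside 21.1% of all genes, with medians of 1.25 and 0.89. Against BO the order was the other way, with 2 of 16 Dhx genes and 17 of 37 Ddx genes past the fold, beside 18.3% of all genes, and medians of 0.50 and 0.96. Against INPUT, too, the Ddx share was the larger, with 3 of 16 Dhx and 12 of 37 Ddx genes past the fold, beside 16.5% of all genes. The medians there were 0.59 and 0.79. With groups scaled to equal sums, 5 of 16 Dhx and 6 of 37 Ddx genes were past it in IP vs. TOTAL (9.73% of all genes), and 8 and 26 in IP vs. BO (34.1%). The members' transcripts ran from 1764 to 6934 bases with a median of 3766, beside 2966 for all genes in IP vs. TOTAL. Across members, Spearman's rho of transcript length with the ratio was -0.38 against BO, 0.02 against INPUT and 0.22 against TOTAL, beside -0.37, 0.05 and 0.42 across all genes. These describe genes of the same libraries, which are not replicates. For GC content rho was 0.22, -0.20 and -0.05 across members and 0.19, -0.27 and -0.16 across all genes.

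Helicases with other names were listed beside the family. Of 18 listed, 13 were past the fold on the high side and 1 on the low side in IP vs. TOTAL (all genes 21.1% and 25.7%), 10 and 0 in IP vs. INPUT (16.5% and 17.9%), and 7 and 0 of 17 measured in IP vs. BO (18.3% and 24.1%). Against the beads, 13 were higher with groups scaled to equal sums (34.1% of all genes) and 14 on the deposited scale (43.9%). The highest in IP vs. TOTAL was Mov10l1, a germ line helicase of piRNA biogenesis (3.15 ± 0.034, from 2558 to 22263), and the lowest the translation initiation factor Eif4a1 (-1.04 ± 0.035, from 8119 to 3876). Eif4a2, close to Eif4a1 in sequence, stood at 1.89 ± 0.028, and Eif4a3, of the exon junction complex, at 0.11 ± 0.056. Mov10, a cytoplasmic helicase that restrains L1, stood at 0.29 ± 0.063 against TOTAL, -0.26 ± 0.059 against INPUT and -0.20 ± 0.083 against BO, where it was at 0.61 on the deposited scale.

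The 16 listed partners of DDX6 in decay and storage all lay above the median gene against TOTAL and against INPUT on this scale, with 10 and 5 past the fold (all genes 21.1% and 16.5%). With groups scaled to equal sums 2 and 3 of them lay below 0 and 4 and 2 were past the fold (9.73% and 9.05%). The highest in IP vs. TOTAL was the decapping scaffold Edc4 (2.62 ± 0.046) and the lowest the deadenylase Cnot7 (0.11 ± 0.032). Against BO, 4 were higher and 2 lower (18.3% and 24.1% of all genes), or 9 and 1 with groups scaled to equal sums (34.1% and 15.0%), and the lowest, picked after its value was seen, was the decapping enzyme Dcp2 (-2.71 ± 0.032, from 12975 in BO to 3467 in IP), below Ddx6 itself.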

How the data were processed

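The authors made stranded, rRNA-depleted libraries, read 75 bases from 1 end, aligned them to mm10 with STAR 2.6.0c and normalized read counts with DESeq2 1.24.0. The gene annotation is not given in the sources used here. The deposited signal in each of the 3 gene tables is the mean normalized count of a group, over gene and repeat-locus rows together. Their columns of fold changes, standard errors and p-values hold the authors' own comparisons, made over the libraries, and were not used. In the repeat table the deposited signal is a normalized count per repeat family and library, made with Telescope and EBSeq, and served only for the rRNA share. Rows for unmapped, multimapped, unassigned and ambiguous reads (21.6 to 37.1% of the summed means) were left out.

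From the means alone no test, spread or replicate check was computed, and the standard errors and p-values of the authors' comparisons were left aside. The relative log2 ratio is log2 of (mean + 1) over (mean + 1) minus its median over genes whose mean reached 10. INPUT vs. TOTAL and BO vs. INPUT are differences of such ratios between tables. The commonest of the lowest nonzero values give what 1 read of each library adds to a mean (0.209 to 0.502), which bounds the reads behind each mean and gives the 95% counting intervals. PCR copies are not told apart, so the intervals cover counting error only. The 3 libraries of a group are described as biological replicates.

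Members and lists were chosen with earlier results of these data known. Named were every member past the fold in a comparison, the 3 highest and 3 lowest members of each, 22 members given by name whatever their values, and of other lists the extremes in IP vs. TOTAL plus D1Pas1, Eif4a1, Eif4a2, Eif4a3 and Mov10. Other members were added to complete their groups. Lengths, GC content, motif codons and shared windows come from the transcript with the longest coding sequence in GENCODE M21 (GRCm38, mm10). Shared windows were counted in either orientation. They therefore include overlap with genes on the opposite strand, which stranded reads can tell apart, and the 2 kinds were not separated. The scripts were tested on simulated data. Python 3.11.15, pandas 2.3.3, numpy 2.4.6 and scipy 1.17.1 were used. Alternatives were other pseudocounts, filters, scalings and a 1.5-fold threshold.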

Additional observations from a re-analysis of the deposited data

How the results depend on the processing

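No paired analysis was possible because the gene tables hold group means and no values per library, and for the same reason no library could be left out. Under the 8 alternatives, none of the members past the fold changed sign, but this is no sign of stability. The scalings move all genes of a comparison together by less than 1 (log2), so they could not turn such a member. The 1.5-fold threshold changes no ratio. Pseudocounts of 0.1 and 10 and dropping the filter kept each count within 1.5 times its value. A filter at a mean of 100 left 0 members on the low side in IP vs. TOTAL, since Dhx58 was below it. On the deposited scale 40 members (75.5%) were higher in IP vs. BO in place of 19, beside 43.9% of all genes. Scaling to summed means gave 34 higher against BO (34.1% of all genes), 3 lower against INPUT (28.3%), and 11 higher and 3 lower against TOTAL (9.73% and 38.1%). In BO vs. INPUT it gave 1 higher (6.17% of all genes) and 22 lower, which is 41.5% of members and near the 42.2% of all genes. Scaling to the upper quartile gave 5 higher in INPUT vs. TOTAL (9.43% of members, near the 7.84% of all genes). At 1.5-fold there were 31 higher and 6 lower in IP against BO (30.6% and 33.4% of all genes), 30 higher and 3 lower against INPUT (29.1% and 29.3%), 37 higher and 3 lower against TOTAL (32.5% and 35.0%), 14 higher in INPUT vs. TOTAL (26.4% of members, near the 21.5% of all genes), and 10 higher and 11 lower in BO vs. INPUT (34.3% and 25.8%). These follow from how each alternative is built. Of 1742 single values under alternatives, 893 moved by more than their counting interval and 849 did not. Depth limits Dhx58, whose BO mean rests on as few as 26 reads. How much libraries differ within a group limits every value and was not assessed here.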
